A study of Mus musculus with 12 samples.

Results

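RNA from mouse colon given dextran sulfate sodium (DSS) together with ImP was compared with RNA from colon given DSS alone, gene by gene. The comparison used 6 of the 12 libraries of the study, the 3 labelled DSS_ImP (numbers 2, 3 and 4) and the 3 labelled DSS (numbers 2, 3 and 5), chosen by these labels with no use of measured values. All 22279 genes that passed a filter on low counts, of 35841 in the table, were tested. The mice were wild type in every group. The other 6 libraries came from untreated colon (Ctrl) and from colon given ImP without DSS (ImP). They served to estimate the spread and for side comparisons. The series text gives 7 days of ImP, and the labels do not spell the name out or give a dose, an age or a DSS schedule. The series title names polysaccharides of Angelica dahurica, which no library label mentions. Whether the 3 libraries of a group come from separate animals is not stated, so the p-values cover the spread among these libraries and no more.

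DSS is a sulfated polymer that strips the epithelium of the colon and is widely used to cause colitis in mice. Where the epithelium is lost, resident cells release interleukin-1 and chemokines, neutrophils and monocytes enter from the blood, and fibroblasts lay down matrix and growth factors around the ulcer. Absorptive colonocytes carry the brush border, the transporters and the detoxifying enzymes of the surface. RNA of whole colon tissue pools all of these cells, so fewer cells of a type and less RNA per cell cannot be told apart.

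Values are counts per 1000000 of the library (CPM, scaled by the trimmed mean of M-values) and log2 changes of DSS_ImP minus DSS ± SE, each from 3 libraries against 3. A gene is said to rise or fall only where edgeR's quasi-likelihood test, fitted over the 12 libraries, gave an adjusted p under 0.05 over all genes tested. Totals ran from 55419380 to 67406087 estimated counts per library. Traces of other organs differed between libraries. Albumin (Alb), a liver gene, stood at 37, 0.263 and 0 CPM in DSS 2, 3 and 5 and 0.0928, 0.0429 and 0 CPM in DSS_ImP 2, 3 and 4. The pancreatic enzyme gene Ctrb1 stood at 0.0722, 5.26 and 4.94 CPM in DSS 2, 3 and 5 and 0, 0 and 0 CPM in DSS_ImP 2, 3 and 4. DSS 3 and 5 were as low as DSS_ImP in Alb, and DSS 2 was near DSS_ImP in Ctrb1. Fits without DSS 2 and with DSS 2 as the only DSS library were therefore also run. For gene lists, a count from a fit without 1 library is printed only where it moved much. Smaller moves are left out. For example, rises among neutrophil genes went from 22 to 15 without DSS 2. Falls among enzymes of the first phase of xenobiotic metabolism went from 15 to 11 without DSS_ImP 3. Mitochondrial transcripts made up between 6.0% and 6.34% of counts in DSS and between 4.67% and 5.14% in DSS_ImP.

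In DSS_ImP, 888 genes were higher and 901 were lower than in DSS, which is 3.99% and 4.04% of the genes tested and 8.03% together. The rises were the larger changes: 171 of the 888 exceeded a log2 change of 2, against 31 of the 901 falls. The 20 largest rises among well-expressed genes with a symbol included 9 genes of neutrophils (Ngp, S100a8, S100a9, Mmp8, Retnlg, Cxcr2, Il1r2, Mrgpra2a and Mrgpra2b), the stefin-type inhibitors Stfa2, Cstdc4 and Cstdc5, the neutrophil-attracting ligands Cxcl2, Cxcl3 and Csf3, the cytokine Il36g and the plasminogen activator inhibitor Serpinb2. The 20 largest falls included transporters and enzymes of colonocytes, among them Slc13a1, Slc30a10, Slc51a, Ugt2b36, Ugt2b5, Ces2b, Dio1 and Hkdc1. They also included the transcription factor genes Osr2 and Hoxb6, the gut peptide genes Prap1 and Nts, and the pancreatic trace gene Ctrb1 given above. Of 15 pancreatic genes 3 fell, a count that became 8 without DSS 2 and 0 without DSS 3 or DSS 5. Of 16 liver genes 1 fell, Alb, a count that became 0 without DSS 2 and 5 without DSS 3. Osr2 stood at 65.1, 76.8 and 84 CPM in DSS and 17.5, 5.66 and 18.4 CPM in DSS_ImP, and Prap1, a secreted protein of enterocytes, at 15.1, 30.8 and 19.5 CPM in DSS and 4.11, 2.23 and 9.26 CPM in DSS_ImP. In 879 of the 888 risen genes and 892 of the 901 fallen genes, the 3 libraries of one group lay beyond all 3 of the other. All 3 DSS_ImP libraries stood above all 3 DSS libraries in 14.2% of the genes tested, and below them in 14.3%.

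**Figure D1:**
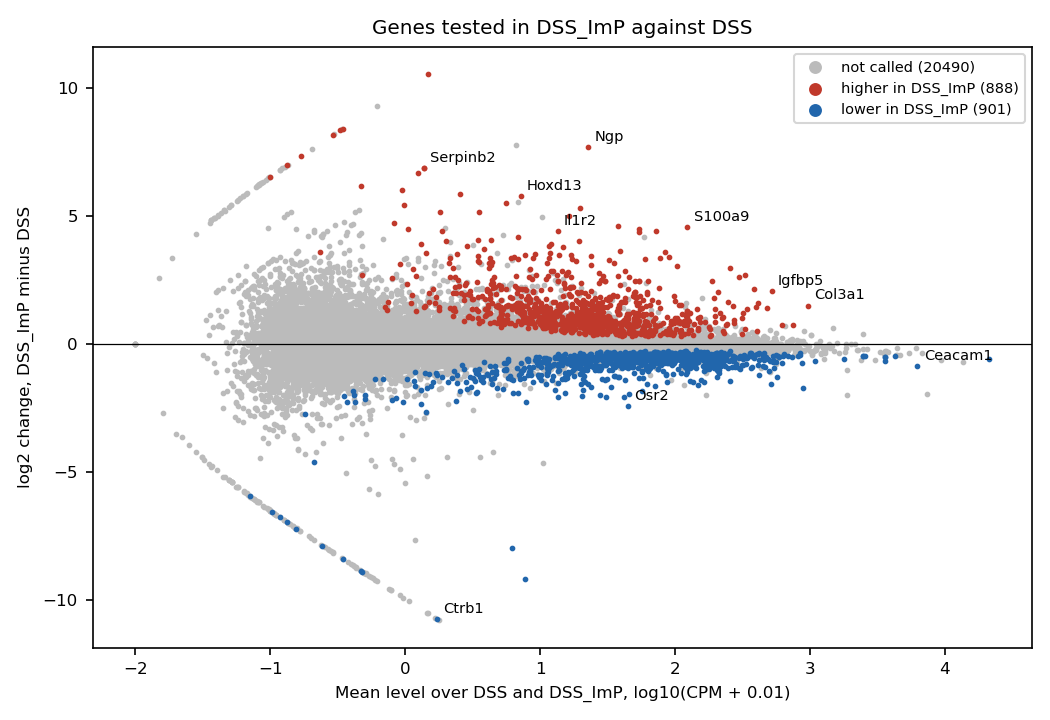
Each point is 1 of the 22279 genes tested, with the mean level over the DSS and DSS_ImP libraries on the horizontal axis (log10 of CPM plus 0.01) and the log2 change of DSS_ImP minus DSS on the vertical axis. The 888 genes called higher (red) reach larger changes than the 901 called lower (blue), and the diagonal edges at both sides are genes with 0 counts in 1 group.

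The DSS_ImP libraries were not equally far from DSS. DSS_ImP 3 was the highest of its group in 755 of the 888 risen genes and the lowest in 601 of the 901 fallen genes, whereas DSS_ImP 4 lay nearest to DSS in 698 and 680 of them. The count of calls fell from 1789 to 491 without DSS_ImP 3, to 522 without DSS 5, to 758 without DSS 2 and to 820 without DSS_ImP 2, and with DSS 2 as the only DSS library 413 genes were called. In each of the 6 fits that left out 1 of these libraries, 403 of the 1789 genes were called, 215 of them higher and 188 lower. Scaling to library totals alone moved the median of all genes by 0.15 on the log2 scale and the split to 1583 higher and 447 lower, against 49.6% higher in the reported fit. In limma on log2(FPKM + 1) it was 1311 higher and 633 lower.

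Hox genes, whose clusters are switched on in order along the gut and mark how far towards the anus a piece of colon lies, differed between the groups and are given before the other results. They were collected after their values were seen. Hoxd13, the last gene of its cluster, stood at 0.235, 0.309 and 0.23 CPM in DSS 2, 3 and 5 and 12.3, 29.1 and 0.984 CPM in DSS_ImP 2, 3 and 4. The 3 DSS_ImP libraries were all above DSS and spread widely among themselves, with DSS_ImP 4 far below DSS_ImP 2 and 3. Its log2 change was 5.76 ± 1.61 (edgeR adjusted p = 0.0477). The call was lost without any 1 of DSS 2, 3 and 5, DSS_ImP 2 and 3 and Ctrl 1 and 4. Hoxb13 stood at 8.11, 21.2 and 12.4 CPM in DSS and 72.9, 112 and 25.3 CPM in DSS_ImP, with all DSS_ImP libraries above DSS, and did not pass the test (adjusted p = 0.18). Genes earlier in the same clusters went the other way: Hoxb6 stood at 48.1, 34.8 and 51.8 CPM in DSS and 8.35, 7.75 and 17.3 CPM in DSS_ImP, with no overlap, and its log2 change was -2.01 ± 0.32. Of the 8 tested members of the b cluster in groups 1 to 9, 7 fell, and of the 4 of the d cluster 3 fell. None of the 11 tested genes of the a cluster was called, and Hoxa13 stood at 31.7, 29.1 and 24 CPM in DSS and 38.5, 36.1 and 31.6 CPM in DSS_ImP. DSS_ImP 3 was the highest and DSS_ImP 4 the lowest of its group in Hoxd13, as in most risen genes. The part of position along the colon in the results below was not tested.

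**Figure D2:**
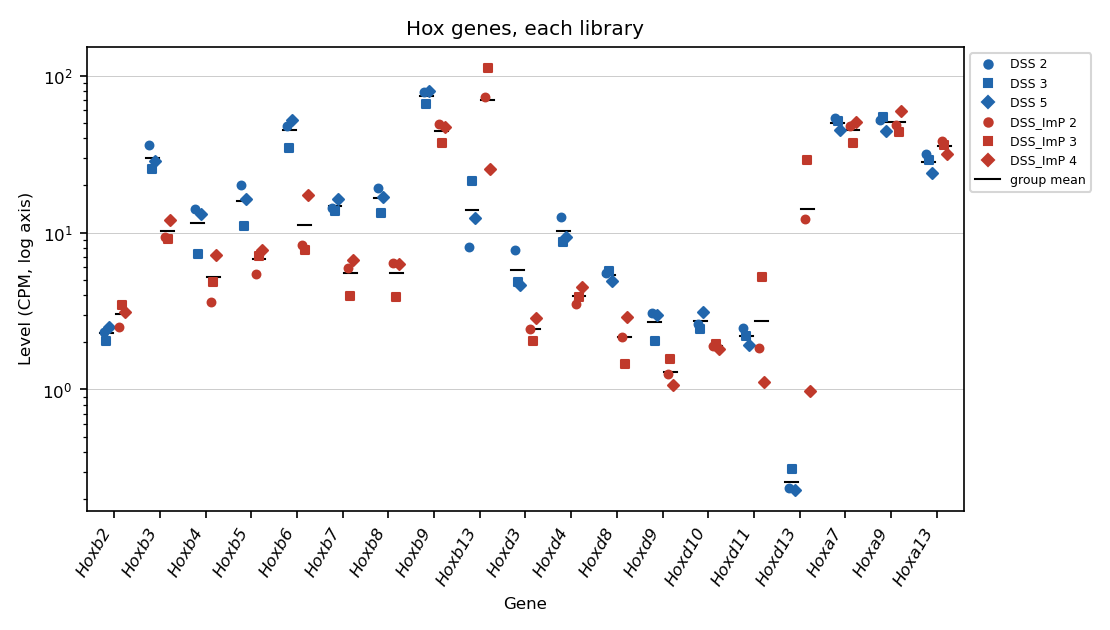
Levels of Hox genes (CPM, log axis) in the 3 DSS libraries (blue) and the 3 DSS_ImP libraries (red), with a symbol for each library and a black bar at each group mean. Hoxb3 to Hoxb9 and Hoxd3 to Hoxd9 lie lower in DSS_ImP with no overlap, whereas Hoxd13 and Hoxb13 lie higher and the a cluster genes overlap.

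Neutrophil genes rose. Of 32 tested genes of neutrophil granules, receptors and surface, 22 rose and 0 fell, where 3.99% of all genes rose. Their median log2 change was 3.57, against 0.02 over all genes tested. In 31 of the 32 the DSS_ImP libraries all stood above DSS. The count became 11 without DSS 5, 12 without DSS_ImP 3 and 2 with DSS 2 as the only DSS library. S100a9 (ENSMUSG00000056071), which with S100a8 forms calprotectin, a zinc-binding protein of neutrophils, stood at 10.4, 15.2 and 4.48 CPM in DSS 2, 3 and 5 and 157, 440.3 and 113 CPM in DSS_ImP 2, 3 and 4. S100a8 (ENSMUSG00000056054) stood at 7.48, 7.18 and 4.58 CPM in DSS and 90, 256 and 65.7 CPM in DSS_ImP. In both, the lowest DSS_ImP library was several times the highest DSS library, and DSS_ImP 3 was the highest. The log2 changes were 4.56 ± 0.67 and 4.42 ± 0.87.

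Ngp (ENSMUSG00000032484), a protein of the secondary granules of neutrophils, was nearly absent from DSS and stood at 0.343, 0.155 and 0.169 CPM in DSS and 29.1, 89.3 and 16.5 CPM in DSS_ImP, a log2 change of 7.67 ± 0.83. Lcn2 (ENSMUSG00000026822), which starves bacteria of iron by binding siderophores and is made by neutrophils and by injured epithelium, stood at 14.1, 15.1 and 10.1 CPM in DSS and 103, 274 and 91.5 CPM in DSS_ImP and rose by 3.58 ± 0.44. The neutrophil collagenase Mmp8 stood at 0.469, 1.75 and 0.721 CPM in DSS and 27.1, 73.6 and 14.8 CPM in DSS_ImP and rose by 5.29 ± 0.96. All 3 groups of values were apart, with DSS_ImP 3 again the highest. The formyl peptide receptors Fpr1 and Fpr2, which sense bacterial peptides, rose by 3.36 ± 0.53 and 3.29 ± 0.57, and the granulocyte receptor gene Csf3r by 2.20 ± 0.36. Retnlg, a secreted protein of neutrophils, rose by 4.62 ± 0.71, and Mmp9, a gelatinase of their granules, by 2.69 ± 0.43. Cxcr2, the receptor for the CXC ligands below, stood at 0.885, 0.835 and 0.445 CPM in DSS and 7.16, 23.8 and 7.98 CPM in DSS_ImP. It rose by 4.17 ± 1.01, as did Trem1, which amplifies signals in neutrophils and monocytes, by 3.88 ± 0.81. Other genes of secondary granules were low: Camp stood at 0.163, 0 and 0 CPM in DSS and 0.305, 0.973 and 0.631 CPM in DSS_ImP and did not pass the test (adjusted p = 0.221), and neither did the granule gene Ltf at 4.17, 2.41 and 2.82 CPM in DSS and 7.78, 25.3 and 5.92 CPM in DSS_ImP. Ly6g, the surface marker of mouse granulocytes, stood at 106, 69.1 and 34.8 CPM in DSS and 169, 402 and 165 CPM in DSS_ImP with no overlap and an adjusted p of 0.151. It was the 1 member of the list that rose in ImP against Ctrl, where it stood at 241, 72 and 63.1 CPM in the ImP libraries and 0.821, 1.8 and 7.78 CPM in Ctrl. Stefin genes, cysteine protease inhibitors abundant in mouse neutrophils, appeared mainly in DSS_ImP. Stfa2 stood at 0, 0 and 0.0613 CPM in DSS and 1.71, 6.05 and 0.354 CPM in DSS_ImP, and Cstdc4 at 0, 0 and 0.245 CPM in DSS and 4.74, 8.01 and 2.15 CPM in DSS_ImP. Cstdc5 stood at 0, 0 and 0.0767 CPM in DSS and 0.941, 4.08 and 0.492 CPM in DSS_ImP, so that most DSS libraries held no count of any of the 3. These genes and Mrgpra2a and Mrgpra2b have near-identical copies among which counting can split reads, so their separate values are uncertain. Of the named neutrophil genes, S100a9, Ngp, Lcn2, Fpr1, Fpr2, Csf3r, Retnlg and Mmp9 were called in each fit without 1 of the 6 libraries, and S100a8, Mmp8, Cxcr2 and Trem1 lost the call in at least 1.

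**Figure D3:**
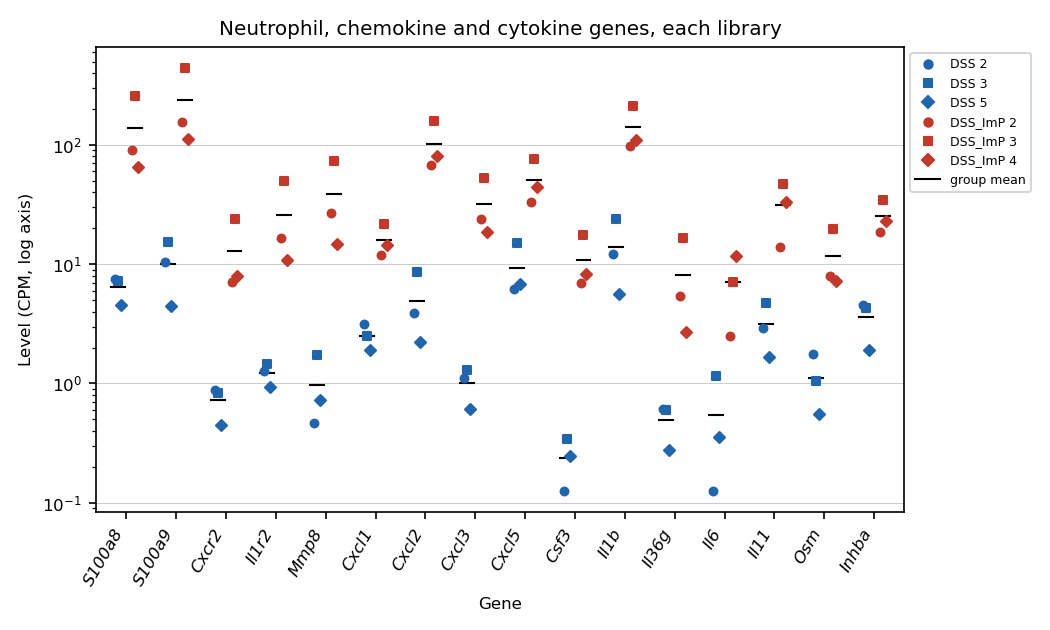
Levels (CPM, log axis) of 16 neutrophil, chemokine and cytokine genes in the 3 DSS libraries (blue) and the 3 DSS_ImP libraries (red), with group means as black bars. In every gene shown all 3 DSS_ImP libraries lie above all 3 DSS libraries, and DSS_ImP 3 is the highest except for Il6.

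The ligands that draw neutrophils rose with them. Of 9 tested neutrophil chemokines and colony-stimulating factors, 5 rose and 0 fell; the count became 3 without DSS 2, DSS 5, DSS_ImP 2 or DSS_ImP 3 and 2 with DSS 2 as the only DSS library. Cxcl1, Cxcl2 and Cxcl3 are neighbouring genes on mouse chromosome 5 whose products bind Cxcr2. Their promoters are shown because the 3 genes moved together. Each window runs from 250 bases before to 50 bases after the RefSeq gene start in build GRCm38.p6 on the + strand, written 5′ to 3′, with capitals for GGGAATTTCCC, the longest run of letters that the 3 windows share before the gene start. The windows are chr5:90890995-90891294 for Cxcl1, chr5:90903649-90903948 for Cxcl2 and chr5:90785851-90786150 for Cxcl3.
Cxcl1: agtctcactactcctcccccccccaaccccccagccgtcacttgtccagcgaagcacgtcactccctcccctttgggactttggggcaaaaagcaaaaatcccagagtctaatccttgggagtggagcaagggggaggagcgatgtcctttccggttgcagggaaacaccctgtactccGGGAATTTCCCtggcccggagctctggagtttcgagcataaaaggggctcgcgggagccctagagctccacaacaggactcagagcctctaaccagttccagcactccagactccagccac
Cxcl2: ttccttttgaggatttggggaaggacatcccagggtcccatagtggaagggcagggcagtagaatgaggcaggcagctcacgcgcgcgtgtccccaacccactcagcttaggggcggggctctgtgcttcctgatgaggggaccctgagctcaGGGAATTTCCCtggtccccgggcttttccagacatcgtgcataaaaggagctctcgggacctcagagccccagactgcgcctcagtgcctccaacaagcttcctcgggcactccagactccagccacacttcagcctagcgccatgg
Cxcl3: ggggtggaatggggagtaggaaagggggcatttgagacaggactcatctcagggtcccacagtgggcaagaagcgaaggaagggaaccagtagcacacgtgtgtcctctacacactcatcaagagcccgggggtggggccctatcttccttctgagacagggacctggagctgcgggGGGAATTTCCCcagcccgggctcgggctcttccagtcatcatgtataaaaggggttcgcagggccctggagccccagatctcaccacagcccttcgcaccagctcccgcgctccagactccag
The run starts 71 bases before the gene start in Cxcl1, 97 in Cxcl2 and 73 in Cxcl3, and its letters are of the kind bound by NF-kB, a factor that switches on inflammatory genes. It was chosen from these windows, so its presence in them is no finding. Searched on both strands, it was present in 14 of the 32851 windows of the table (0.0426%) and in 10 of the 14014 tested genes with a window (0.0714%). The 3 risen genes that hold it, of 640 with a window, are Cxcl1, Cxcl2 and Cxcl3 themselves, and 0 of 662 fallen genes hold it. A match is a description of the letters in these windows and shows no binding.

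Cxcl2 (ENSMUSG00000058427) stood at 3.9, 8.68 and 2.24 CPM in DSS 2, 3 and 5 and 68, 157 and 81.3 CPM in DSS_ImP 2, 3 and 4, and Cxcl3 (ENSMUSG00000029379) at 1.1, 1.3 and 0.613 CPM in DSS and 23.8, 52.9 and 18.7 CPM in DSS_ImP. Cxcl1 (ENSMUSG00000029380) stood at 3.12, 2.51 and 1.92 CPM in DSS and 12, 21.6 and 14.4 CPM in DSS_ImP. The groups did not overlap for any of the 3, and DSS_ImP 3 was the highest each time. The log2 changes were 4.37 ± 0.59 for Cxcl2, 4.98 ± 0.61 for Cxcl3 and 2.67 ± 0.69 for Cxcl1, with edgeR adjusted p-values of 0.00422, 0.00419 and 0.0355. Cxcl5, a ligand of the same receptor made largely by epithelium, stood at 6.23, 15 and 6.81 CPM in DSS and 33, 76 and 44 CPM in DSS_ImP and rose by 2.45 ± 0.67. Csf3, the granulocyte colony-stimulating factor that releases neutrophils from bone marrow, stood at 0.126, 0.34 and 0.245 CPM in DSS and 6.89, 17.5 and 8.31 CPM in DSS_ImP and rose by 5.50 ± 0.72. In DSS it lay under 0.4 CPM in each library. The factors for monocytes and for both lineages did not pass: Csf1 stood at 16, 18.5 and 16.8 CPM in DSS and 34.8, 35.1 and 18.5 CPM in DSS_ImP and Csf2 at 0, 0.124 and 0.276 CPM in DSS and 0.398, 0.2 and 0.415 CPM in DSS_ImP, with adjusted p-values of 0.0549 and 0.655. Calls for Cxcl2, Cxcl3 and Csf3 held in each fit without 1 of the 6 libraries, while those for Cxcl1 and Cxcl5 did not.

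Monocyte-attracting CC chemokines rose in part. Of 18 tested, 6 rose and 1 fell; the count that rose became 3 without DSS 2, DSS 5 or DSS_ImP 3 and 1 with DSS 2 as the only DSS library. Ccl2, the main ligand for monocytes, stood at 3.2, 2.81 and 2.05 CPM in DSS and 11.2, 16.3 and 8.25 CPM in DSS_ImP and rose by 2.15 ± 0.27. Ccl4 stood at 1.91, 2.89 and 0.843 CPM in DSS and 9.69, 41.1 and 14.7 CPM in DSS_ImP and rose by 3.53 ± 0.60, and Ccl3, a related ligand, rose by 2.53 ± 0.49. Groups were apart for each. Ccl7 rose by 2.20 ± 0.52, the eosinophil chemokine Ccl11 by 1.69 ± 0.27, and the chemokine receptor gene Ccr1 by 1.54 ± 0.30. Ccl5, a product of T and NK cells, fell by a log2 change of -0.65 ± 0.17, was not called without Ctrl 4, DSS 2 or any 1 of the DSS_ImP libraries, and its 3 DSS_ImP libraries were nearly equal at 14.7, 14.7 and 14.8 CPM. Cxcl9 and Cxcl10, chemokines that interferon gamma switches on, stood at 5.65, 19.4 and 15.7 CPM in DSS and 26.4, 16 and 12.3 CPM in DSS_ImP and at 6.97, 7.5 and 5.55 CPM in DSS and 20.2, 10.5 and 9.55 CPM in DSS_ImP and did not pass (adjusted p = 0.602 and 0.147).

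Rises in the interleukin-1 family included ligands, receptors and inhibitors. Of 17 tested members, 10 rose and 1 fell, with a median log2 change of 1.53. The count that rose became 5 without DSS 2, 3 without DSS 5, 4 without DSS_ImP 3 and 1 with DSS 2 as the only DSS library. The ligand Il1b (ENSMUSG00000027398), which drives fever, adhesion and neutrophil influx, stood at 12.2, 23.7 and 5.61 CPM in DSS 2, 3 and 5 and 97.8, 213 and 109 CPM in DSS_ImP 2, 3 and 4. Its values were apart, with DSS 3 the highest of DSS and DSS_ImP 3 the highest of all. The log2 change was 3.34 ± 0.44 (edgeR adjusted p = 0.00419). Il1a, a ligand of the same receptor, stood at 2.33, 4.08 and 0.46 CPM in DSS and 17, 40.1 and 19 CPM in DSS_ImP and rose by 3.47 ± 0.84. Il36g, a ligand released by injured epithelium, stood at 0.614, 0.603 and 0.276 CPM in DSS and 5.42, 16.5 and 2.68 CPM in DSS_ImP and rose by 4.04 ± 0.79. Il33, an alarm signal of fibroblasts and epithelium, rose by 1.59 ± 0.34, and its receptor Il1rl1 stood at 15.4, 25.8 and 8.95 CPM in DSS and 48, 163 and 64.7 CPM in DSS_ImP and rose by 2.46 ± 0.59. The signalling receptor Il1r1 rose by 1.41 ± 0.23. A decoy receptor and an antagonist of the system rose as well. Il1r2, a decoy receptor carried by neutrophils, stood at 1.26, 1.45 and 0.935 CPM in DSS and 16.6, 50.1 and 10.8 CPM in DSS_ImP and rose by 4.40 ± 0.56, and the antagonist Il1rn stood at 50.9, 42.3 and 32.3 CPM in DSS and 148, 235 and 79.7 CPM in DSS_ImP and rose by 1.88 ± 0.36. The exception was Sigirr, an inhibitory receptor of epithelium, which fell by a log2 change of -0.45 ± 0.13. Of the 12 fits that left out 1 library, the one without DSS_ImP 4 still called it. Il18, a family member made by colonocytes, stood at 69, 47.7 and 49.2 CPM in DSS and 40, 74.8 and 62.8 CPM in DSS_ImP and overlapped (adjusted p = 0.891).

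Sensors that feed this family moved in opposite directions. Of 23 inflammasome and gasdermin genes, 2 rose and 5 fell. The count that fell became 2 without DSS 2, DSS 5, DSS_ImP 2 or DSS_ImP 3, 3 without DSS 3 and 0 with DSS 2 as the only DSS library, and the count that rose 1 without DSS 2, DSS 5 or DSS_ImP 3 and 0 with DSS 2 as the only DSS library. The risers were Nlrp3, the inflammasome sensor of myeloid cells, at 1.37, 3.65 and 0.889 CPM in DSS and 11.4, 26.9 and 6.38 CPM in DSS_ImP, and Mefv, which encodes pyrin and is made by myeloid cells, with log2 changes of 2.92 ± 0.67 and 2.10 ± 0.38. The fallers were Nlrp6, a sensor expressed in colonocytes and goblet cells, at 267, 239 and 253 CPM in DSS and 161, 102 and 166 CPM in DSS_ImP, with Naip5, Casp1, Pycard and Gsdme. Their log2 changes were -0.82 ± 0.16, -0.60 ± 0.15, -0.46 ± 0.12, -0.45 ± 0.12 and -0.98 ± 0.18. Groups were apart for all 7. Calls for Mefv, Nlrp6 and Gsdme held in each fit without 1 of the 6 libraries. Gsdmd, the pore protein of pyroptosis, stood at 155, 169 and 151 CPM in DSS and 138, 237 and 161 CPM in DSS_ImP and overlapped.

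Cytokines that signal through gp130 rose, together with gp130 itself. Of 21 genes of the interleukin-6 family and its signalling, 8 rose and 0 fell, and the count became 4 without DSS 2, 5 without DSS 3, 3 without DSS 5 or DSS_ImP 3 and 1 with DSS 2 as the only DSS library. Il11 (ENSMUSG00000004371), a fibroblast cytokine, stood at 2.94, 4.76 and 1.67 CPM in DSS 2, 3 and 5 and 14, 47.2 and 33 CPM in DSS_ImP 2, 3 and 4 and rose by 3.33 ± 0.49. Osm, made by neutrophils and macrophages, stood at 1.75, 1.05 and 0.552 CPM in DSS and 7.95, 19.8 and 7.17 CPM in DSS_ImP and rose by 3.38 ± 0.58, while its receptor Osmr, on stromal cells, rose by 1.17 ± 0.21. The groups were apart in each. Il6 was low, at 0.126, 1.14 and 0.353 CPM in DSS and 2.52, 7.15 and 11.7 CPM in DSS_ImP, and like Lif had its highest value in DSS_ImP 4. Its log2 change was 3.70 ± 1.04. Lif rose by 1.09 ± 0.27, Il6st, which encodes gp130, by 0.84 ± 0.20, and the receptor Il6ra by 0.78 ± 0.18. The target Pim1 rose by 0.65 ± 0.16, whereas Socs3, the feedback inhibitor, stood at 107, 83.5 and 109 CPM in DSS and 119, 221 and 158 CPM in DSS_ImP with no overlap and did not pass (adjusted p = 0.206).

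Other cytokine lists held fewer called genes, apart from the TNF family with 5 of 19. In the interleukin-17 and interleukin-22 list, 1 of 19 genes rose and 2 fell. The count that rose became 0 without Ctrl 4, Ctrl 5, ImP 1, ImP 4, DSS 2, DSS 3, DSS 5, DSS_ImP 2 or DSS_ImP 3 and 0 with DSS 2 as the only DSS library, and the count that fell 0 without DSS 2 or DSS_ImP 2, 1 without DSS 5 or DSS_ImP 3 and 1 with DSS 2 as the only DSS library. The receptor Il17ra rose by 0.54 ± 0.15, and the receptor Il17rc fell by a log2 change of -0.46 ± 0.10. Il17a stood at 0.0722, 0.34 and 0.751 CPM in DSS and 0.252, 0.458 and 0.969 CPM in DSS_ImP and Il22 at 0.668, 0.155 and 0.184 CPM in DSS and 0.106, 1.07 and 0.646 CPM in DSS_ImP, with overlap in both. Of 19 genes of the TNF family, 5 rose and 0 fell; the count became 3 without ImP 1 or DSS 3, 2 without ImP 4 or DSS_ImP 2, 1 without DSS 2, DSS 5 or DSS_ImP 3 and 0 with DSS 2 as the only DSS library. Tnf itself stood at 7.15, 5.89 and 7.96 CPM in DSS and 9.71, 12.5 and 7.51 CPM in DSS_ImP and overlapped, while its receptor Tnfrsf1b rose by 0.76 ± 0.14 and the ligand Tnfsf14 by 1.63 ± 0.43. Of 34 interferon-response genes 1 rose, Gbp5, by 1.16 ± 0.31, which is a share below that of all genes; the count became 0 without Ctrl 4, DSS 2, DSS 5, DSS_ImP 2 or DSS_ImP 3, 2 without ImP 1 and 3 without ImP 4 or DSS_ImP 4. Isg15 stood at 9.23, 13.9 and 8.36 CPM in DSS and 25.8, 10.2 and 9.69 CPM in DSS_ImP and overlapped. The lists of class II and class I antigen presentation gave 0 rises, with 1 fall among 18 class I genes (H2-T23) and 0 among 11 of class II. The fall became 2 without Ctrl 1, 0 without DSS 2, DSS 3, DSS 5, DSS_ImP 3 or DSS_ImP 4 and 0 with DSS 2 as the only DSS library.

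Receptors of phagocytes rose broadly. Of 19 Fc receptors and paired immune receptors, 15 rose and 0 fell, the highest share of any list, with a median log2 change of 1.58. The count became 9 without DSS 5 or DSS_ImP 3 and 9 with DSS 2 as the only DSS library. Cd300lf, a myeloid receptor for phospholipids, stood at 5.44, 4.11 and 5.4 CPM in DSS 2, 3 and 5 and 19.5, 38.1 and 17.4 CPM in DSS_ImP 2, 3 and 4 and rose by 2.33 ± 0.31. Its 3 DSS values were within a narrow range, and DSS_ImP 3 was the highest. The IgG receptors Fcgr1, Fcgr3 and Fcgr4 rose by 1.37 ± 0.23, 1.40 ± 0.25 and 1.49 ± 0.30, and their signalling chain Fcer1g by 1.15 ± 0.22. Lilrb4a stood at 15.7, 23.1 and 20.1 CPM in DSS and 90.2, 168 and 61 CPM in DSS_ImP and rose by 2.44 ± 0.34, and Pirb by 1.88 ± 0.32; both belong to clusters of near copies. Of 25 pattern recognition receptors, 7 rose and 0 fell; the count became 2 without DSS 2, DSS 5 or DSS_ImP 3, 12 without DSS_ImP 4 and 0 with DSS 2 as the only DSS library. The rises were in receptors of myeloid cells, such as Clec4e and Clec4d, which sense mycobacterial and fungal glycolipids, at 3.45 ± 0.56 and 2.84 ± 0.54, and Cd14, the co-receptor for lipopolysaccharide, at 1.51 ± 0.34. Tlr4 stood at 26.2, 22.5 and 32.1 CPM in DSS and 22, 32.7 and 27.6 CPM in DSS_ImP and Tlr2 at 47.7, 36.4 and 54.7 CPM in DSS and 35.7, 35.6 and 26.8 CPM in DSS_ImP. Neither passed the test, and the 3 DSS_ImP values of Tlr2 lay below DSS.

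Monocyte and macrophage genes rose in part. Of 25 tested, 15 rose and 1 fell; the count that rose became 9 without DSS 2, DSS 5 or DSS_ImP 3. Itgam, the integrin of neutrophils and monocytes, stood at 17.1, 28.7 and 27.7 CPM in DSS and 90.4, 145 and 63.8 CPM in DSS_ImP and rose by 2.02 ± 0.27. Chil3, a secreted protein of monocytes and neutrophils, stood at 8.56, 2.72 and 2.82 CPM in DSS and 96.9, 196 and 20.1 CPM in DSS_ImP and rose by 4.48 ± 0.77, and F13a1, a transglutaminase of monocytes, rose by 2.49 ± 0.40. Cd163, the haemoglobin scavenger receptor, stood at 3.86, 6.28 and 9.09 CPM in DSS and 42.9, 42.1 and 15.9 CPM in DSS_ImP and rose by 2.39 ± 0.38. DSS_ImP 4 was the lowest of its group for all 4. Mrc1, the mannose receptor of macrophages, stood at 14.1, 25.1 and 20.7 CPM in DSS and 71.1, 80.1 and 32.3 CPM in DSS_ImP and rose by 1.62 ± 0.29. Other members were not called higher: Adgre1, which encodes F4/80, stood at 9.71, 19.9 and 19.3 CPM in DSS and 28, 31.4 and 19.6 CPM in DSS_ImP and overlapped, Cx3cr1 stood at 10.3, 13.5 and 13.2 CPM in DSS and 11.3, 10.2 and 11.6 CPM in DSS_ImP and overlapped, and Mertk, a receptor for dying cells, fell by a log2 change of -0.56 ± 0.14, a call lost without DSS 2, DSS 5, DSS_ImP 2 or DSS_ImP 3. Arg1 stood at 4.12, 3.91 and 2.25 CPM in DSS and 16.8, 19.1 and 6.98 CPM in DSS_ImP and rose by 2.06 ± 0.37, while Nos2, which competes with it for arginine, stood at 157, 108 and 229 CPM in DSS and 87.7, 267 and 185 CPM in DSS_ImP and overlapped. Arg1 was named after its values were seen. Of 13 dendritic cell genes 0 were called, and of 26 genes of T and NK cells 0 rose and 2 fell, Cd8a and Cd3e, by log2 changes of -0.85 ± 0.18 and -0.87 ± 0.20. The count that fell became 0 without DSS 2 or DSS_ImP 3, 1 without DSS 3, DSS 5 or DSS_ImP 2 and 1 with DSS 2 as the only DSS library.

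Complement rose in its early components and its receptors. Of 25 tested genes 11 rose and 0 fell; the count became 5 without DSS 2 or DSS 5, 7 without DSS_ImP 2 and 4 without DSS_ImP 3. C3 (ENSMUSG00000024164), the component on which all complement pathways converge, stood at 175, 294 and 337 CPM in DSS 2, 3 and 5 and 635, 893 and 568 CPM in DSS_ImP 2, 3 and 4 and rose by 1.38 ± 0.25. C4b rose by 1.36 ± 0.26 and the receptor for C5a, C5ar1, by 1.78 ± 0.34. Cd55, a brake on complement at the cell surface, rose by 0.75 ± 0.13. Cfb, of the alternative pathway, stood at 107, 104 and 126 CPM in DSS and 128, 164 and 116 CPM in DSS_ImP and overlapped.

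Genes for adhesion molecules on which leukocytes roll and stop were among the endothelial genes that rose. Of 23 endothelial genes 11 rose and 0 fell; the count became 4 without DSS 2 or DSS_ImP 3, 7 without DSS 3, 3 without DSS 5, 5 without DSS_ImP 2 and 1 with DSS 2 as the only DSS library. Selp (ENSMUSG00000026580), which encodes P-selectin, stood at 3.63, 3.62 and 3.37 CPM in DSS 2, 3 and 5 and 21.7, 31.1 and 16.3 CPM in DSS_ImP 2, 3 and 4 and rose by 2.70 ± 0.36. The DSS values were nearly equal and all DSS_ImP values lay several times higher. Sele, E-selectin, stood at 0.126, 0.479 and 0.0613 CPM in DSS and 1.83, 2.72 and 3.31 CPM in DSS_ImP and rose by 3.54 ± 0.95, and Vcam1 and Icam1 rose by 1.82 ± 0.29 and 1.26 ± 0.23. General endothelial genes rose less, with Vwf at 0.82 ± 0.18 and Cdh5 at 0.79 ± 0.19, and Lyve1, of lymphatic vessels and some macrophages, at 1.57 ± 0.29.

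Matrix genes formed the second large block of rises. Of 24 collagens 14 rose and 0 fell, and the count became 9 without DSS 5, 7 without DSS_ImP 2 and 5 without DSS_ImP 3. Col4a1 (ENSMUSG00000031502) and Col4a2, which form the basement membrane, stood at 158, 233 and 234 CPM in DSS 2, 3 and 5 and 562, 864 and 439 CPM in DSS_ImP 2, 3 and 4 and at 116, 152 and 156 CPM in DSS and 364, 557 and 270.0 CPM in DSS_ImP. They rose by 1.58 ± 0.25 and 1.49 ± 0.23. DSS_ImP 3 was the highest in both, and the groups did not overlap. Col18a1, the source of endostatin, rose by 1.78 ± 0.32. The fibrillar collagens Col3a1, Col1a1 and Col1a2 rose by 1.49 ± 0.34, 1.22 ± 0.33 and 1.19 ± 0.29. Their DSS libraries differed among themselves, with Col3a1 at 221, 720.0 and 583 CPM in DSS and 1585, 1710.0 and 988 CPM in DSS_ImP, DSS 2 being the lowest, and these 3 calls did not hold in each fit without 1 library. Of 19 genes that process collagen 9 rose and 0 fell (the count became 4 without DSS 2 or DSS_ImP 2, 3 without DSS 5 or DSS_ImP 3 and 2 with DSS 2 as the only DSS library), among them the crosslinking enzymes Lox and Loxl2, by 1.70 ± 0.29 and 1.39 ± 0.23, and the lysyl hydroxylase Plod2 by 1.47 ± 0.25. Of 24 matricellular and ground-substance genes 11 rose and 0 fell, and the count became 7 without DSS_ImP 3. Tenascin Tnc stood at 112, 119 and 125 CPM in DSS and 255, 531 and 335 CPM in DSS_ImP, and Tnc, fibronectin Fn1, versican Vcan, the hyaluronan synthase Has2 and decorin Dcn rose by 1.65 ± 0.26, 1.44 ± 0.22, 2.01 ± 0.33, 2.95 ± 0.49 and 1.36 ± 0.25.

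Enzymes that cut matrix and their inhibitors both rose. Of 28 metalloproteases and inhibitors 17 rose and 1 fell (the count that rose became 11 without DSS 5 and 5 with DSS 2 as the only DSS library), with a median log2 change of 1.47. Adamts4 (ENSMUSG00000006403), which cuts versican and aggrecan, stood at 5.65, 9.02 and 6.27 CPM in DSS 2, 3 and 5 and 43.4, 70.4 and 28.4 CPM in DSS_ImP 2, 3 and 4 and rose by 2.76 ± 0.36. Adamts1 and Adamts9 rose by 1.97 ± 0.29 and 2.22 ± 0.32, and Adam8, a protease of leukocytes, by 2.64 ± 0.37. The stromal proteases Mmp3, Mmp10 and Mmp13 rose by 3.26 ± 0.61, 2.65 ± 0.53 and 2.62 ± 0.50; Mmp3 stood at 6.59, 7.9 and 3.97 CPM in DSS and 18.2, 113 and 46.2 CPM in DSS_ImP, with a wide spread in DSS_ImP. The inhibitor Timp1 stood at 3.99, 5.58 and 2.7 CPM in DSS and 19.5, 38.9 and 24 CPM in DSS_ImP and rose by 2.75 ± 0.46, and Timp3 by 1.06 ± 0.19. Mmp7, matrilysin of epithelium, went the other way and stood at 13.5, 8.69 and 17.2 CPM in DSS and 5.57, 2.73 and 5.72 CPM in DSS_ImP. Its log2 change was -1.49 ± 0.37, and it was not called without any 1 of DSS 5, DSS_ImP 2 and DSS_ImP 3.

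The plasminogen and coagulation system rose on both sides of its balance. Of 22 genes 14 rose and 0 fell; the count became 8 without DSS 2, 9 without DSS 3 or DSS_ImP 2, 7 without DSS 5, 5 without DSS_ImP 3 and 1 with DSS 2 as the only DSS library. The inhibitor Serpinb2 had counts in 1 DSS library and stood at 0, 0 and 0.0613 CPM in DSS 2, 3 and 5 and 1.82, 4.62 and 1.66 CPM in DSS_ImP 2, 3 and 4. The activators rose as well, with Plau at 1.17 ± 0.25 and Plat at 1.63 ± 0.35, and the receptor Plaur at 1.76 ± 0.27. F3, tissue factor, which starts coagulation, rose by 1.01 ± 0.14, and thrombomodulin Thbd, which restrains it, by 0.68 ± 0.12. Among 22 serpins and related inhibitors 11 rose and 0 fell; the count became 7 without DSS 2 or DSS 5, 5 without DSS_ImP 3 and 4 with DSS 2 as the only DSS library. The serpin gene Serpina3n stood at 76.3, 90.8 and 100.4 CPM in DSS and 526, 933 and 267 CPM in DSS_ImP and rose by 2.69 ± 0.41. Serpina3m stood at 1.81, 1.72 and 2.53 CPM in DSS and 26.3, 45.4 and 10.7 CPM in DSS_ImP and rose by 3.77 ± 0.42. Both belong to a cluster of near copies. Slpi, an inhibitor of neutrophil elastase, rose by 3.33 ± 0.67.

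Growth factors of the stroma rose, and their epithelial receptors diverged. Inhba (ENSMUSG00000041324), which encodes the activin A subunit, stood at 4.57, 4.25 and 1.92 CPM in DSS 2, 3 and 5 and 18.7, 34.3 and 22.9 CPM in DSS_ImP 2, 3 and 4 and rose by 2.82 ± 0.37. Grem1, a stromal inhibitor of BMP signals, stood at 79.4, 92.3 and 73.7 CPM in DSS and 200.4, 549 and 244 CPM in DSS_ImP and rose by 2.02 ± 0.32. These are 2 of the 11 that rose, against 2 that fell, among 31 BMP, activin and TGF-beta genes. The count that rose became 4 without DSS 2 or DSS 5, 5 without DSS 3, 7 without DSS_ImP 2, 2 without DSS_ImP 3 and 2 with DSS 2 as the only DSS library, and the count that fell 0 without Ctrl 1, Ctrl 5, DSS 2, DSS 5, DSS_ImP 2, DSS_ImP 3 or DSS_ImP 4, 1 without Ctrl 4, ImP 4 or DSS 3 and 1 with DSS 2 as the only DSS library. Of 30 genes of the FGF, VEGF, PDGF and HGF systems 9 rose and 0 fell; the count became 3 without DSS 2, DSS 5 or DSS_ImP 3, 5 without DSS_ImP 2 and 3 with DSS 2 as the only DSS library. Fgf7 and Fgf10, fibroblast ligands that make epithelium divide, rose by 2.44 ± 0.42 and 1.67 ± 0.29, and Hgf by 2.79 ± 0.54. Vegfa stood at 113, 88.5 and 97.5 CPM in DSS and 67.1, 99.3 and 96.8 CPM in DSS_ImP and overlapped. Igfbp5, a carrier of insulin-like growth factors, stood at 181, 225 and 201 CPM in DSS and 555, 1526 and 437 CPM in DSS_ImP and rose by 2.05 ± 0.37. The EGF family split, with 4 of 14 higher and 3 lower. Without DSS 5 it was 2 higher and 1 lower, and without either DSS_ImP 2 or DSS_ImP 3 it was 1 lower. The ligands Ereg and Nrg1 stood at 18.8, 36.9 and 12.1 CPM in DSS and 102, 307 and 141 CPM in DSS_ImP and at 12.6, 17.6 and 9.09 CPM in DSS and 47, 110.1 and 37.2 CPM in DSS_ImP and rose by 3.02 ± 0.49 and 2.31 ± 0.39, and Btc and the receptor Egfr by 0.88 ± 0.17 and 0.40 ± 0.09. The receptors Erbb2 and Erbb3 and the ligand Tgfa fell by log2 changes of -0.87 ± 0.12, -0.92 ± 0.20 and -0.47 ± 0.12. Erbb2 stood at 205, 191 and 233 CPM in DSS and 108, 101 and 135 CPM in DSS_ImP with no overlap. Areg and Hbegf, ligands of the same receptor, stood at 16.3, 23.9 and 10.4 CPM in DSS and 22.4, 20.4 and 34.8 CPM in DSS_ImP and at 19.8, 28.9 and 20.4 CPM in DSS and 15, 20.5 and 26.4 CPM in DSS_ImP and overlapped.

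Genes of wounded epithelium rose in part. The list of 25 genes that mark regenerating or fetal-like epithelium gave 11 rises and 0 falls, and the count became 6 without DSS 2, 4 without DSS 5, 7 without DSS_ImP 2, 5 without DSS_ImP 3 and 2 with DSS 2 as the only DSS library. Most of its called members are also made by stroma or leukocytes, such as F3, Plaur, Il33 and Il1rn above. Anxa1, a regulator of inflammation abundant in that state, stood at 164, 221 and 153 CPM in DSS and 282, 364 and 260.3 CPM in DSS_ImP and rose by 0.75 ± 0.20, and Ecm1 by 1.16 ± 0.21. Ly6a, a marker of the same state, stood at 416, 524 and 302 CPM in DSS and 448, 764 and 583 CPM in DSS_ImP and overlapped (adjusted p = 0.142), as did Clu at 35.2, 16.4 and 19.6 CPM in DSS and 62.1, 55.1 and 27.1 CPM in DSS_ImP. Of 31 stem cell and Wnt genes 4 rose and 0 fell, among them the stromal R-spondin Rspo3 by 1.46 ± 0.31, and the count became 2 without DSS 2, 1 without DSS 5 or DSS_ImP 3 and 2 with DSS 2 as the only DSS library. The stem cell gene Lgr5 stood at 3.72, 4.86 and 7.01 CPM in DSS and 4.44, 0.93 and 4.88 CPM in DSS_ImP and overlapped.

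Prostaglandin and histamine synthesis rose at named steps. Ptgs2 (ENSMUSG00000032487), the inducible cyclooxygenase, stood at 8.45, 18.7 and 4.66 CPM in DSS 2, 3 and 5 and 38.8, 74.7 and 111 CPM in DSS_ImP 2, 3 and 4 and rose by 2.82 ± 0.47. Its groups did not overlap, and DSS_ImP 4 was the highest. The synthase Ptges rose by 1.38 ± 0.32, and Hpgd, which breaks prostaglandins down, fell by a log2 change of -0.81 ± 0.16. Of 31 genes of these pathways 7 rose and 3 fell, and the count that rose became 3 without DSS 2, DSS 5 or DSS_ImP 3, 4 without DSS 3 or DSS_ImP 2 and 2 with DSS 2 as the only DSS library. The count that fell became 1 without DSS 3, DSS 5 or DSS_ImP 3 and 0 with DSS 2 as the only DSS library. Hdc, which makes histamine from histidine, stood at 2.04, 4.76 and 1.61 CPM in DSS and 21.9, 57.1 and 13.9 CPM in DSS_ImP and rose by 3.46 ± 0.59. It was the 1 gene called among 13 of mast cells and eosinophils, and neutrophils of mice express it too.

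**Figure D4:**
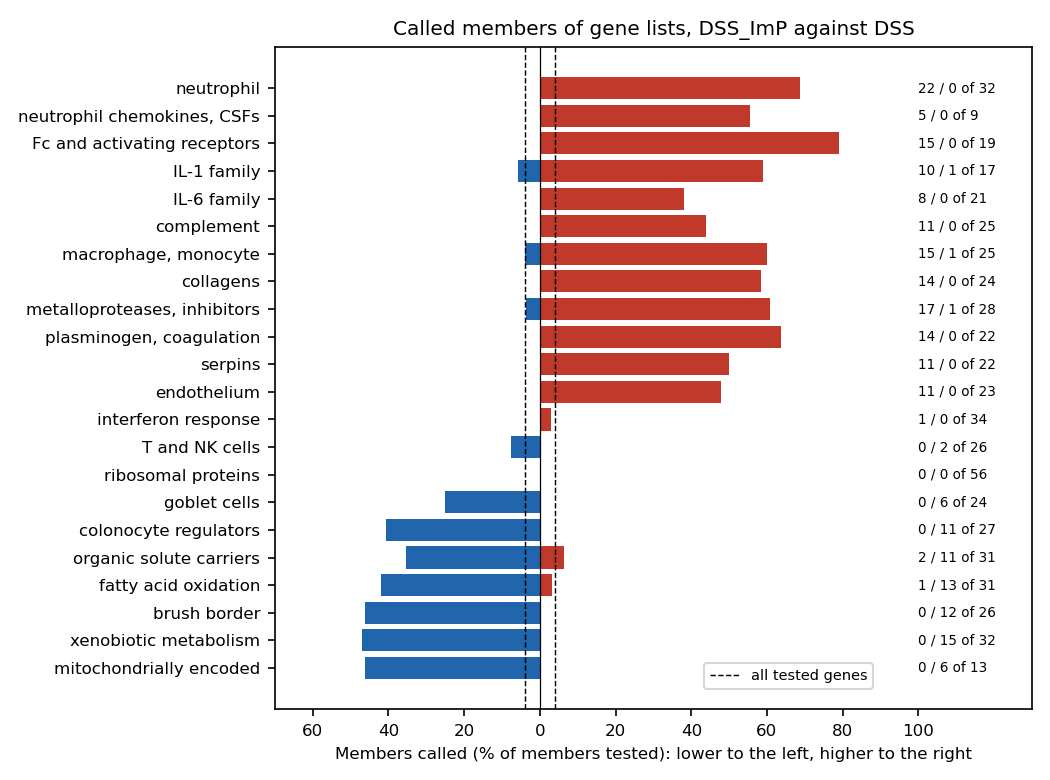
Share of the tested members of 22 gene lists that were called higher (red, to the right) or lower (blue, to the left) in DSS_ImP against DSS, with the counts higher and lower of those tested at the right edge; dashed lines mark the share over all genes tested, 3.99% higher and 4.04% lower. Immune and matrix lists other than T and NK cells extend mainly to the right, and epithelial and metabolic lists mainly to the left. The T and NK cell list has 0 higher and 2 lower of 26. The interferon and ribosomal lists hold at most 1 called member.

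Genes of the absorptive epithelium fell, by smaller steps than the rises. Of 26 brush border genes 12 fell and 0 rose, where 4.04% of all genes fell, and the median log2 change was -0.68. The count became 7 without DSS 5 and 4 with DSS 2 as the only DSS library. Mep1a (ENSMUSG00000023914), a protease of the brush border, stood at 381, 335 and 409 CPM in DSS 2, 3 and 5 and 135, 85.3 and 186 CPM in DSS_ImP 2, 3 and 4, with no overlap and DSS_ImP 3 the lowest. Its log2 change was -1.47 ± 0.22 (edgeR adjusted p = 0.00499). Cdhr5 and Cdhr2, cadherins that link the tips of microvilli, fell by log2 changes of -0.70 ± 0.10 and -0.69 ± 0.12, Ush1c, their anchor, by -0.67 ± 0.12, and villin, Vil1, by -0.48 ± 0.12. All of these but Vil1 held the call in each fit without 1 of the 6 libraries. Ceacam1, an adhesion protein of the apical surface, stood at 8636, 7549.7 and 8034 CPM in DSS and 3337, 4007 and 5983 CPM in DSS_ImP and fell by a log2 change of -0.86 ± 0.18.

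Transcription factors that maintain colonocytes fell in part. Of 27 such regulators 11 fell and 0 rose; the count became 3 without DSS 2 or DSS_ImP 2, 6 without DSS 3, 4 without DSS 5, 2 without DSS_ImP 3 and 1 with DSS 2 as the only DSS library. Vdr (ENSMUSG00000022479), the vitamin D receptor, stood at 409, 362 and 430.4 CPM in DSS 2, 3 and 5 and 206, 159 and 246 CPM in DSS_ImP 2, 3 and 4 and its log2 change was -0.98 ± 0.13. Ppara, which controls fat burning, stood at 19.4, 15.9 and 17.8 CPM in DSS and 8.72, 5.48 and 5.81 CPM in DSS_ImP and its log2 change was -1.41 ± 0.26. Groups were apart in both. Smaller falls were seen in Hnf4a, a master regulator of the absorptive lineage, at -0.48 ± 0.12, the partner receptor Rxra at -0.56 ± 0.11, Pparg at -0.66 ± 0.16, Klf4 at -0.53 ± 0.11 and the intestinal homeobox gene Cdx2 at -0.76 ± 0.20. Cdx1 and Hnf4g stood at log2 changes of -0.31 ± 0.13 and -0.35 ± 0.15 and did not pass. Calls for Vdr and Ppara held in each fit without 1 library.

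Transporters fell in part. Of 31 carriers of organic solutes 11 fell and 2 rose; the count that fell became 3 without DSS 2, DSS 5, DSS_ImP 2 or DSS_ImP 3 and 1 with DSS 2 as the only DSS library. Slc13a1, the sulfate carrier, stood at 41.9, 53.2 and 55.2 CPM in DSS 2, 3 and 5 and 11.3, 4.61 and 19.4 CPM in DSS_ImP 2, 3 and 4, with DSS_ImP 3 the lowest, and its log2 change was -2.09 ± 0.39. Slc51a, a subunit of the bile acid exporter, stood at 90.5, 97.2 and 78.8 CPM in DSS and 34.5, 7.88 and 31.8 CPM in DSS_ImP and its log2 change was -1.85 ± 0.46. The glucose carrier Slc5a1 and the carnitine carrier Slc22a5 fell by log2 changes of -0.92 ± 0.15 and -0.72 ± 0.10. The 2 that rose, Slc7a11 and Slc3a2, form the cystine exchanger together, with 2.17 ± 0.37 and 0.44 ± 0.11; the count that rose became 1 without DSS 2, DSS 5, DSS_ImP 2 or DSS_ImP 3 and 0 with DSS 2 as the only DSS library. Slc30a10, a manganese exporter, stood at 11.6, 12.3 and 14.9 CPM in DSS and 2.2, 2.1 and 3.65 CPM in DSS_ImP and its log2 change was -2.29 ± 0.34. Of 29 genes of salt and water absorption 7 fell and 0 rose, among them the bicarbonate carrier Slc4a4, the sodium-proton exchanger Slc9a2 and the aquaporin Aqp11, at -0.93 ± 0.12, -0.92 ± 0.15 and -1.08 ± 0.14. The chloride exchanger Slc26a3 stood at 517, 397 and 366 CPM in DSS and 260.5, 437 and 472 CPM in DSS_ImP and the water channel Aqp8 at 202, 147 and 157 CPM in DSS and 76.8, 133 and 182 CPM in DSS_ImP, and both overlapped. The guanylin hormones Guca2a and Guca2b, their receptor Gucy2c and its kinase Prkg2, a pathway that sets fluid secretion, all fell, by log2 changes of -0.69 ± 0.17, -1.0 ± 0.24, -0.60 ± 0.16 and -1.57 ± 0.27. They are 4 of the 5 that fell among 13 genes of this pathway and the carbonic anhydrases; the count became 1 without DSS 2, DSS 5, DSS_ImP 2 or DSS_ImP 3 and 0 with DSS 2 as the only DSS library.

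Detoxifying and fat-burning enzymes fell. Of 32 enzymes of the first phase of xenobiotic metabolism 15 fell and 0 rose, with a median log2 change of -0.97, against 0.02 over all genes tested. The count became 9 without DSS 5 and 6 with DSS 2 as the only DSS library. The carboxylesterase Ces2a (ENSMUSG00000055730) stood at 183, 223 and 191 CPM in DSS 2, 3 and 5 and 62.7, 66.7 and 82.3 CPM in DSS_ImP 2, 3 and 4, with no overlap, and its log2 change was -1.50 ± 0.17. Fmo5, a flavin monooxygenase, stood at 47.4, 53.4 and 53.3 CPM in DSS and 15.5, 14.3 and 18 CPM in DSS_ImP and its log2 change was -1.69 ± 0.25. The cytochromes P450 Cyp2c55, Cyp3a13 and Cyp4f14 fell by log2 changes of -1.55 ± 0.26, -1.11 ± 0.17 and -0.91 ± 0.13. Of 32 conjugating enzymes and efflux pumps 12 fell and 0 rose, and the count became 6 without DSS 2, 7 without DSS 5, DSS_ImP 2 or DSS_ImP 3 and 6 with DSS 2 as the only DSS library. Ugt2b36 stood at 2.71, 2.75 and 1.84 CPM in DSS and 0.53, 0.286 and 0.338 CPM in DSS_ImP, and the log2 changes were -2.65 ± 0.30 for Ugt2b36, -1.94 ± 0.32 for Ugt2b5 and -1.62 ± 0.25 for Ugt1a1. The glucuronosyltransferases and carboxylesterases are families of near copies, the Ugt1a genes share exons, and their separate values are uncertain. Of 31 genes of fatty acid oxidation 13 fell and 1 rose; the count that fell became 5 without DSS 2 or DSS 5, 8 without DSS_ImP 2, 7 without DSS_ImP 3 and 2 with DSS 2 as the only DSS library. Acadm, which starts the oxidation of medium chains in mitochondria, stood at 126, 122 and 146 CPM in DSS and 82.9, 87.3 and 94.1 CPM in DSS_ImP and fell by a log2 change of -0.58 ± 0.10. Angptl4, an inhibitor of lipoprotein lipase, was the exception and rose by 1.74 ± 0.38, a call lost without DSS 5 or DSS_ImP 3.

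Transcripts of the mitochondrial genome fell slightly. Of 13 tested 6 fell and 0 rose, with 3 called without DSS 3 and 0 without any 1 of DSS 2, DSS 5, DSS_ImP 2 and DSS_ImP 3. mt-Co1, a subunit of cytochrome oxidase, stood at 26558, 25398 and 25174 CPM in DSS 2, 3 and 5 and 16116, 15755 and 18909.6 CPM in DSS_ImP 2, 3 and 4 and its log2 change was -0.60 ± 0.13. The nuclear genes of the respiratory chain gave 1 fall, Sdha, and 0 rises among 43; the count became 6 without Ctrl 1, 0 without DSS 2, DSS 3, DSS 5, DSS_ImP 2 or DSS_ImP 3, 5 without DSS_ImP 4 and 0 with DSS 2 as the only DSS library.

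Genes of secretory cells fell in part. Of 24 goblet cell and mucus genes 6 fell and 0 rose; the count became 2 without DSS 2, DSS 5, DSS_ImP 2 or DSS_ImP 3 and 1 with DSS 2 as the only DSS library. Atoh1, the factor that commits cells to the secretory fate, stood at 76.8, 59.4 and 54.8 CPM in DSS and 37.4, 24.5 and 41 CPM in DSS_ImP and its log2 change was -0.89 ± 0.19, and Klk1, a kallikrein of goblet cells, fell by -0.93 ± 0.14. The mucin Muc2 stood at 12635, 9584 and 11698 CPM in DSS and 5566, 7221 and 9049 CPM in DSS_ImP with no overlap and did not pass (adjusted p = 0.113), and Tff3, Spink4 and Clca1 overlapped, with log2 changes of -0.19 ± 0.17, 0.01 ± 0.16 and -0.18 ± 0.37. Of 21 tuft cell genes 4 fell and 2 rose; the count that fell became 2 without DSS 2, DSS 5 or DSS_ImP 3 and 2 with DSS 2 as the only DSS library. Trpm5, the cation channel of tuft cells, stood at 8.2, 5.17 and 6.53 CPM in DSS and 2.25, 1.89 and 2.48 CPM in DSS_ImP and its log2 change was -1.59 ± 0.21, and Sh2d6 fell by -1.45 ± 0.24. Il25, the tuft cell cytokine, had 0 counts in each DSS_ImP library, which allows up to 0.0617 CPM, and stood at 0.163, 0.0928 and 0.107 CPM in DSS. The 2 risers, Alox5ap and Ptgs1, are leukotriene and prostaglandin genes that leukocytes and stroma also express, and the count that rose became 1 without DSS 2, DSS 3, DSS 5, DSS_ImP 2 or DSS_ImP 3 and 0 with DSS 2 as the only DSS library. The antimicrobial lectins Reg3b and Reg3g, made by stressed enterocytes, stood at 14406, 8873 and 11706 CPM in DSS and 1069, 1357 and 6638 CPM in DSS_ImP and at 3632, 1968 and 3443 CPM in DSS and 206, 320.2 and 1713 CPM in DSS_ImP. All DSS_ImP libraries lay below DSS, DSS_ImP 4 nearest to it, and neither passed (adjusted p = 0.13 and 0.14).

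**Figure D5:**
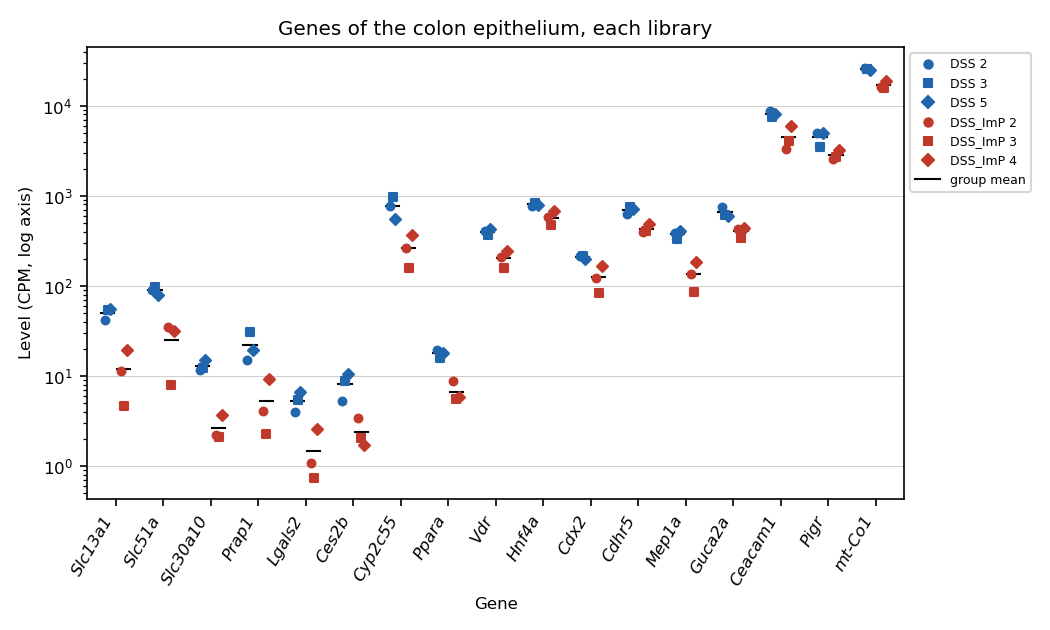
Levels (CPM, log axis) of 17 genes of the colon epithelium in the 3 DSS libraries (blue) and the 3 DSS_ImP libraries (red), with group means as black bars. In every gene shown the DSS_ImP libraries lie below the DSS libraries, with the largest log2 falls for Slc30a10, Slc13a1 and Prap1.

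Of 56 ribosomal protein genes 0 were called, with a median log2 change of -0.10. Of 42 genes of the cell cycle and replication 2 rose and 1 fell, but 23 rose without DSS 3, 16 with DSS 2 as the only DSS library, and 0 without any 1 of DSS 2, DSS 5, DSS_ImP 2 and DSS_ImP 3. Of 19 smooth muscle genes 1 rose, Cald1, and the count became 0 without DSS 2, DSS 3, DSS 5 or DSS_ImP 3, 2 without DSS_ImP 4 and 0 with DSS 2 as the only DSS library. Acta2 and Des stood at 529, 402 and 546 CPM in DSS and 697, 538 and 511 CPM in DSS_ImP and at 319.6, 222 and 330.3 CPM in DSS and 310.2, 259 and 333 CPM in DSS_ImP with overlap. Of 11 genes of squamous anal epithelium 0 were called.

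Tight junction genes, which seal the epithelium, fell in part. Of 26 tested 9 fell and 2 rose; the count that fell became 5 without Ctrl 4 or ImP 1, 4 without DSS 2 or DSS 3, 2 without DSS 5 or DSS_ImP 2, 1 without DSS_ImP 3 and 0 with DSS 2 as the only DSS library, and the count that rose 1 without DSS 2, DSS 3, DSS 5 or DSS_ImP 3 and 0 with DSS 2 as the only DSS library. Cldn1 was the larger rise and stood at 1.44, 1.27 and 1.1 CPM in DSS and 10.8, 9.88 and 2.75 CPM in DSS_ImP, a log2 change of 2.62 ± 0.47.

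ImP was also given without DSS, and that comparison shares no library with the one above. In ImP against Ctrl 236 genes were higher and 207 lower, 1.06% and 0.929% of the genes tested and 1.99% together. The count of 443 became 49 without Ctrl 1, 51 without Ctrl 4 and between 208 and 279 without any 1 of Ctrl 5, ImP 1, ImP 3, ImP 4 and DSS 5. Of the 888 genes higher in DSS_ImP 34 were also higher in ImP, which is 3.83% of the first list and 14.4% of the second. Of the 901 lower genes 111 were also lower in ImP, which is 12.3% of the first list and 53.6% of the second. The neutrophil list gave 1 rise in ImP against 22 in DSS_ImP, with medians of 0.46 and 3.57, and the Fc receptor list 0 against 15. Cxcl2 stood at 0.589, 0.345 and 0.29 CPM in Ctrl and 1.63, 1.17 and 0.268 CPM in ImP, with a log2 change of 1.31 ± 0.71 (adjusted p = 0.43). The xenobiotic list gave 11 falls in ImP against 15, and the fatty acid oxidation list 9 against 13. The median log2 changes of these 2 lists were -0.78 and -0.44 in ImP against Ctrl. In DSS against Ctrl, where no library was given ImP, they were -0.73 and -0.40. Fmo5 fell in both, with log2 changes of -1.85 ± 0.25 in ImP and -1.69 ± 0.25 in DSS_ImP, as did Slc30a10, with -1.64 ± 0.33 and -2.29 ± 0.34. Among Hox genes, Hoxb6 stood at 71.1, 86.7 and 77.9 CPM in Ctrl and 48, 34.3 and 23.8 CPM in ImP and did not pass (adjusted p = 0.0795), and Hoxb3 passed with a log2 change of -1.21 ± 0.16. Of the 11 a cluster genes, none of which was called in DSS_ImP against DSS, 8 were higher in ImP than in Ctrl. Of these 8, Hoxa5, Hoxa7, Hoxa9, Hoxa10, Hoxa11 and Hoxa13 were also higher in DSS than in Ctrl. Hoxa3 and Hoxa6 did not pass there. In DSS against Ctrl the log2 change of Hoxa13 was 2.68 ± 0.43. Hoxa13 stood at 2.14, 2.44 and 8.6 CPM in Ctrl and 27.7, 38.2 and 42.4 CPM in ImP, with a log2 change of 3.04 ± 0.43 (edgeR adjusted p = 0.00796). The liver gene Alb stood at 45.1, 46.2 and 43.5 CPM in Ctrl and 0.403, 0.52 and 1.1 CPM in ImP.

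Whether the change with ImP differed between colon with and without DSS was tested directly as an interaction. edgeR called 0 genes at an adjusted p under 0.05, with 2631 genes at an unadjusted p under 0.05 (11.8% of those tested), a smallest adjusted p of 0.0506 and 175 genes under 0.1. DESeq2 called 706 genes on the same counts, and leaving out DSS_ImP 4 gave 476 in edgeR. The adjusted interaction p was 0.195 for Cxcl2, 0.771 for S100a9, 0.0659 for Itgam and 0.422 for Slc13a1. The difference between the list counts in the 2 comparisons was not tested.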

How the data were processed

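The 12 libraries were made from oligo(dT)-selected total RNA of wild-type mouse colon with a kit that marks strand, per the labels' protocols. No source used here says whether the counting took strand into account, so an overlapping antisense gene can share reads. The submitters' processing notes name cutadapt 1.9, HISAT2 2.0.4, StringTie 1.3.4d and build GRCm38, with no role or order given. Coordinates in the deposited table did not match that build and are not used. The deposited table holds estimated counts per gene, all whole numbers and with multiples of 4 in excess, and the authors' FPKM values, which correct for gene length.

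Counts were tested in edgeR 4.0.16 (R 4.3.3) with TMM scaling, filterByExpr by group and the quasi-likelihood F test over the 12 libraries, with 1 coefficient per group. P-values are two-sided and were adjusted by Benjamini-Hochberg over 22279 genes, with a threshold of 0.05. The SE of a log2 change is its size over the square root of F. Where 1 group held no count, its limit was 12 counts over the group, 3 units of 4, which covers counting error only. Alternatives used DESeq2 1.42.0 on the counts and limma 3.58.1 on log2(FPKM + 1) and log2(FPKM + 0.1). The procedure was tested on simulated data. The labels do not say whether equal replicate numbers pair libraries, and the reported fit did not pair them.

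The 77 gene lists, 1822 of whose 1844 entries matched the table, and the genes shown were chosen with earlier results of these data known. Named genes were, in each direction, the 20 largest changes with a symbol, without overlap and with a mean of at least 1 FPKM in the higher group, the 10 called genes with the highest CPM, up to 6 called members of each list with the smallest p, and members called against their list's direction. All genes named as not called, and Fpr2, Csf3r, Trem1, Il6, Il1a, Il1rl1, Pycard, Lif, Fcgr3, Fcgr4, Fcer1g, Mrc1, Arg1, Sele, Col1a1, Col1a2, Mmp3, Mmp10, Mmp13, Timp1, Timp3, Plau, Plat, Vil1, Anxa1, Hoxb3, Hoxb4 and Hoxd3, were named after their values were seen. Some genes are not reported here.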

Additional observations from a re-analysis of the deposited data

How the results depend on the processing

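The count of genes called in DSS_ImP against DSS, 1789, became 3188 with DESeq2, 721 with the 6 compared libraries alone, 14 when tested by glmTreat against a log2 change of 1, and 413 with DSS 2 as the only DSS library, 229 of them among the 1789. Leaving out 1 library gave between 491 and 2616. The count was 1890 with upper quartile scaling, 2030 with library totals, 1944 and 1867 with limma on FPKM and pseudocounts of 1 and 0.1, 1253 with no filter, 2131 with at least 1 CPM in 6 libraries and 2187 with counts divided by 4. ImP against Ctrl, 443 genes, became 1269 with DESeq2, 231 with no filter, 0 with glmTreat and between 49 and 527 without 1 library. The interaction, 0 genes, became 706 with DESeq2, 26 with upper quartile scaling, 72 and 17 with limma on FPKM and pseudocounts of 1 and 0.1, 46 with the stricter filter, 18 with counts divided by 4 and between 0 and 476 without 1 library. It was not run on 2 groups alone, since it needs all 4. The cause of these differences was not tested, except that dropping libraries leaves fewer of them to the test. Replicate numbers as a block gave 351 calls in DSS_ImP against DSS, 0 in ImP against Ctrl and 2 in the interaction, and same-numbered libraries correlated by -0.25 to 0.18, above 0.1 in 2 of 9 pairs. The naming rules above gave 320 genes, not all of them printed, without those named after their values were seen. All 320 were called in the reported fit, so a reversal on the same counts was unlikely from the start. Of their 7604 values under the alternatives, 5852 kept their direction and their call, 1752 lost the call and 0 reversed. Depth was similar across libraries, and the limits are the 3 libraries a group and their spread.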

Other observations

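Nerve and follicle genes outside the comparisons above also stood apart. Vip, a neuropeptide of enteric neurons that widens vessels, stood at 14.8, 12.4 and 14.8 CPM in DSS and 43, 73.6 and 26.2 CPM in DSS_ImP and rose by a log2 change of 1.76 ± 0.31. Gfap, a marker of reactive glia, stood at 3.52, 2.54 and 2.51 CPM in DSS and 5.55, 22.3 and 10.2 CPM in DSS_ImP and rose by 2.15 ± 0.43. They were among the 3 that rose of 25 genes of enteric neurons and glia, a count that became 6 without DSS 2, 1 without DSS 5 and 0 with DSS 2 as the only DSS library. Cxcl13, the chemokine that gathers B cells into follicles, stood at 19, 14.4 and 13.4 CPM in DSS 2, 3 and 5 and 151, 295 and 44.7 CPM in DSS_ImP 2, 3 and 4 and rose by 3.39 ± 0.59. The groups did not overlap, and DSS_ImP 4 was the lowest of its group. Ccl21a, a chemokine of lymphatic vessels and of the T cell zone, rose by 1.02 ± 0.28. Of 10 tested genes of lymphoid follicles 2 rose and 0 fell. That count became 1 without any 1 of the DSS libraries, DSS_ImP 2, DSS_ImP 3, the Ctrl libraries, ImP 1 and ImP 4. The constant region gene Ighg2c, of an IgG subclass, stood at 96.4, 133 and 193 CPM in DSS and 678, 929.9 and 271 CPM in DSS_ImP. It rose by 2.15 ± 0.43. Pigr, which carries antibodies across the epithelium, fell by a log2 change of -0.66 ± 0.17. Of 21 genes of B and plasma cells, a list without Ighg2c, 0 rose and 1 fell, with a median log2 change of 0.94. The count that rose became 3 without ImP 4 or DSS_ImP 4, and the count that fell 0 without DSS 2, DSS 5, DSS_ImP 2 or DSS_ImP 3. The variable gene Ighv1-21 had 0 counts in DSS and stood at 1.66, 0.114 and 0.231 CPM in DSS_ImP. It shares reads with near copies.

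Clock output genes and retinoid genes moved in both directions. Dbp, an output of the circadian clock, stood at 25, 20.6 and 20.8 CPM in DSS and 8.52, 7.25 and 13.5 CPM in DSS_ImP and fell by a log2 change of -1.19 ± 0.30, and Tef, Per3, Cry2 and Nr1d2 fell by -0.61 ± 0.11, -0.73 ± 0.16, -0.47 ± 0.08 and -0.43 ± 0.11. Nfil3, which opposes Dbp, rose by 0.82 ± 0.22, and that count of 1 became 0 without Ctrl 5, ImP 1, DSS 2, DSS 3, DSS 5 or DSS_ImP 3 and 0 with DSS 2 as the only DSS library. Of 19 clock genes 6 fell and 1 rose; the count that fell became 2 without DSS 2, DSS 5, DSS_ImP 2 or DSS_ImP 3 and 3 with DSS 2 as the only DSS library. Time of day of the tissue is not given in the labels. Lrat and Aldh1a1, which store vitamin A and turn it into retinoic acid, fell by log2 changes of -1.50 ± 0.31 and -1.32 ± 0.29, and Rdh12 and Stra6 rose by 3.09 ± 0.79 and 2.61 ± 0.69. They are among the 2 that rose and 3 that fell of 25 retinoid genes. The count that rose became 1 without Ctrl 4, Ctrl 5, ImP 1 or DSS 3, 0 without DSS 2, DSS 5, DSS_ImP 2 or DSS_ImP 3, 4 without DSS_ImP 4 and 0 with DSS 2 as the only DSS library, and the count that fell 1 without DSS 5, DSS_ImP 2 or DSS_ImP 3 and 1 with DSS 2 as the only DSS library.

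Some genes varied within groups as much as others did between them. Over the 4 groups, 9 genes above 50 CPM varied by more than 4-fold between the libraries of at least 3 groups. Gapdh was one of them, at 41.1, 229.6 and 253 CPM in DSS and 47.1, 47.1 and 77.3 CPM in DSS_ImP, 169, 30.4 and 129.7 CPM in Ctrl and 33.7, 245 and 221 CPM in ImP, and others were the adipocyte genes Cfd and Fabp4. The distal colon genes Atp12a and Tgm3 were also among them. Tgm3 stood at 4.64, 6.59 and 7.39 CPM in DSS and 89.7, 241 and 6.55 CPM in DSS_ImP and Atp12a at 18.1, 24.5 and 16.4 CPM in DSS and 79.5, 214 and 14 CPM in DSS_ImP, with DSS_ImP 4 within or near the DSS range in both.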
